A study of Mus musculus with 4 samples.

Results

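The genes of the circadian clock were examined in mouse brain cortex after oral treatment with TCQA. They are the 10 genes Arntl, Clock and Npas2 (positive limb), Per2, Per3, Cry1, Cry2, Nr1d1 and Nr1d2 (negative limb) and Dbp (output), taken from the deposited table by the platform's gene symbol, with the brightest row per symbol. All 10 were found among 19572 transcript clusters that carry a gene symbol, each with 1 row. The measurement was a Clariom S mouse array per sample, and values are log2 signals as the authors normalised them, so that a difference of 1 is a doubling.

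The TCQA group had 2 arrays, from male SAMR1 mice given TCQA (tricaffeoylquinic acid, a polyphenol of plants) orally, 5 mg/kg each day for 1 month from an age of 11 months. The control group had 2 arrays, from male SAMR1 mice of the same age given MilliQ water. SAMR1 is an inbred line that ages normally and serves as the control of the senescence-prone SAMP lines, and all animals had lived 1 to a cage for 4 months from an age of 7 months. The labels give neither the hour at which tissue was taken nor whether an array held RNA of 1 mouse or of several, so the p-values reflect the spread among these arrays alone, and that spread may be technical.

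The clock is a feedback loop of transcription that runs in most cells, cortical neurons and glia included. The proteins of Arntl (BMAL1) and of Clock or its relative Npas2 pair up and switch on genes with E-boxes, among them the Per, Cry and Nr1d genes and Dbp, and the PER and CRY proteins then hold the pair back. NR1D1 and NR1D2 (REV-ERB alpha and beta) repress Arntl through sites called RORE, where the ROR receptors activate, and DBP activates genes with D-boxes. In many tissues the transcript of Arntl is high when those of Dbp and Nr1d1 are low, so that the hour of sampling bears on all of them.

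The promoters of 4 members are shown, since each carries a site of 1 branch of this loop; the windows run from 250 bases before to 50 bases after the annotated start, 5′ to 3′ on the gene's strand, from RefSeq on GRCm38.p6. Capitals mark matches to the motifs searched, which were the E-box CACGTG, its variant CACGTT, the D-box TTATGTAA and its form TTACGTAA, the RORE cores TAGGTCA and TGGGTCA, and the cAMP response element TGACGTCA, on both strands. Per3 lies on chromosome 4 (chr4:151044616-151044915, minus strand), Arntl on chromosome 7 (chr7:113207261-113207560, plus strand, the second of 2 annotated starts), Cry1 on chromosome 10 (chr10:85185005-85185304, minus strand) and Nr1d1 on chromosome 11 (chr11:98775328-98775627, minus strand).
Per3: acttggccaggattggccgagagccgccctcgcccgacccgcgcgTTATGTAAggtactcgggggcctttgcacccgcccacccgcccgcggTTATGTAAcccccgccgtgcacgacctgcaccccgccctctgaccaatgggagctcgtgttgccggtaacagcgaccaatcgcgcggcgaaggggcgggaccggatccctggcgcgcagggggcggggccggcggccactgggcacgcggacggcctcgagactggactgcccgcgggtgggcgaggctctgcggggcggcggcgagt
Arntl: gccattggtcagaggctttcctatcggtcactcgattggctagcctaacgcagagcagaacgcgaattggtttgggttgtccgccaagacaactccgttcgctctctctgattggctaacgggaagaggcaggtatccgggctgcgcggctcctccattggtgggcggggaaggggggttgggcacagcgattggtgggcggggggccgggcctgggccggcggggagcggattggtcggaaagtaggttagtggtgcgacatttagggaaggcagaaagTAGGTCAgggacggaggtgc
Cry1: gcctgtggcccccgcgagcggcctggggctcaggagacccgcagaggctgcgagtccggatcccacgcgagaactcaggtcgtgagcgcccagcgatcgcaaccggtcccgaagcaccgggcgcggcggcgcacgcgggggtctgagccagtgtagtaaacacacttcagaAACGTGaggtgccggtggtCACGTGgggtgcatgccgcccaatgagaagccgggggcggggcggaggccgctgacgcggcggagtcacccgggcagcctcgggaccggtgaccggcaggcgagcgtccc
Nr1d1: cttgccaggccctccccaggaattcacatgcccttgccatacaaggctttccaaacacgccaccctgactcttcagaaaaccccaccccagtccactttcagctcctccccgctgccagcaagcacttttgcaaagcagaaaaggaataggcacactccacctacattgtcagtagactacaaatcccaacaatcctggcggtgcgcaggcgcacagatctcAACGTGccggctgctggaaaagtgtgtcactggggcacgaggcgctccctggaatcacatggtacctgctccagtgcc

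The Per3 window held the D-box TTATGTAA at 2 places, 205 and 158 bases before the start. Of 32851 promoter windows in the RefSeq table, 0.938% held this motif and 0.0213% held it at 2 or more places. The Arntl window held the RORE core TAGGTCA 31 bases after the start, a motif found in 2.61% of all windows, and the window of the other start, which lies 5′ of it, had no match. The Cry1 window held an E-box 60 bases before the start (7.15% of windows) and the variant CACGTT at 79 bases, and Nr1d1 and Cry2 held that variant at 28 and 166 bases before the start (4.68% of windows). The table held 12 windows for 9 members, and 5 of these members had a match. The windows of Clock, Npas2, Nr1d2 and Dbp had none of these letters.

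**Figure D1:**
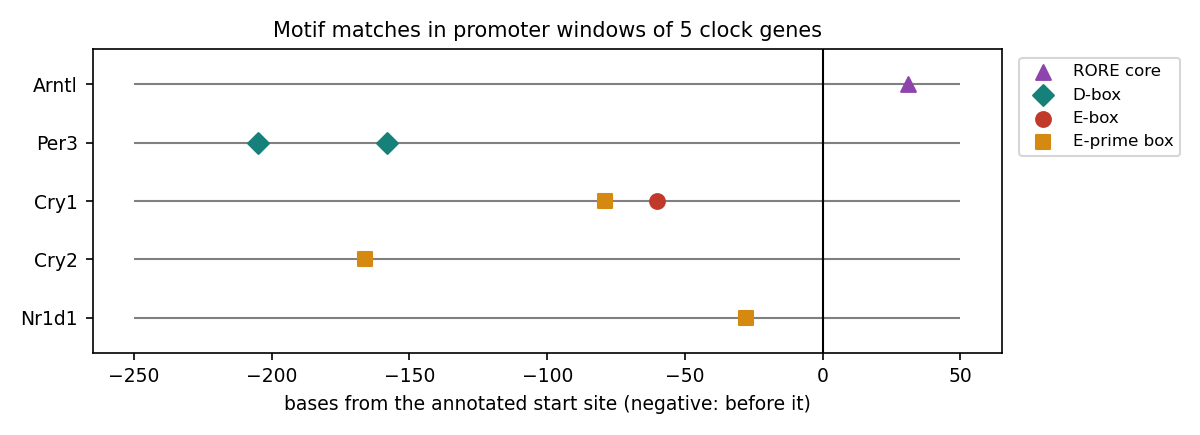
Motif matches in the promoter windows of Arntl, Per3, Cry1, Cry2 and Nr1d1, with bases from the annotated start site on the horizontal axis, 1 line per gene and 1 symbol per kind of motif. Per3 has 2 D-boxes, 205 and 158 bases before its start, and the RORE core of Arntl lies 31 bases after the start.

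The comparison of TCQA with water asked whether any of the 10 genes stood at another level after a month of treatment. With limma, 0 of 10 had an unadjusted p under 0.05, against 1443 of all 19572 transcript clusters (7.37%, made up of 3.48% higher and 3.89% lower after TCQA). Restricted to the upper 50 percent of signal, it was again 0 of 10, against 9.18%. The criteria of the study, over 2-fold together with an unadjusted p under 0.05, were met by 0 of 10, against 0.664% of all. After Benjamini-Hochberg adjustment over all transcript clusters 0 of 10 passed, and 0 of 19572 did (0%), with adjusted p-values of the members between 0.689 and 1.00 (limma). The members had 5 positive and 5 negative log2 differences, between -0.37 and 0.32. Their median size was 0.13, against 0.19 over all transcript clusters and 0.17 over those in the upper 50 percent of signal. The widest 95% confidence bound of a member was 0.87 on the log2 scale, or 1.83-fold, so that a difference of 2-fold lay outside every member's interval. An unadjusted p of 0.05 needed a log2 difference of 0.52 at the median standard error of 0.22, and an exact permutation test of 2 against 2 arrays cannot go below 0.333.

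Of the 10 genes, 5 had groups that did not overlap, 3 higher and 2 lower after TCQA, against 39.2% of all transcript clusters (19.9% higher and 19.2% lower). These were Nr1d1, Nr1d2 and Cry2 on the higher side and Per3 and Dbp on the lower side. The group difference exceeded the gap between both pairs of like arrays for 3 members, against 26.8% of all transcript clusters. Signals of 7 members lay above the 95th percentile of the negative control probe sets (11.06) on all arrays, and those of Arntl, Per2 and Cry1 lay between the control median (6.98) and that percentile, where signal and background are harder to separate.

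**Figure D2:**
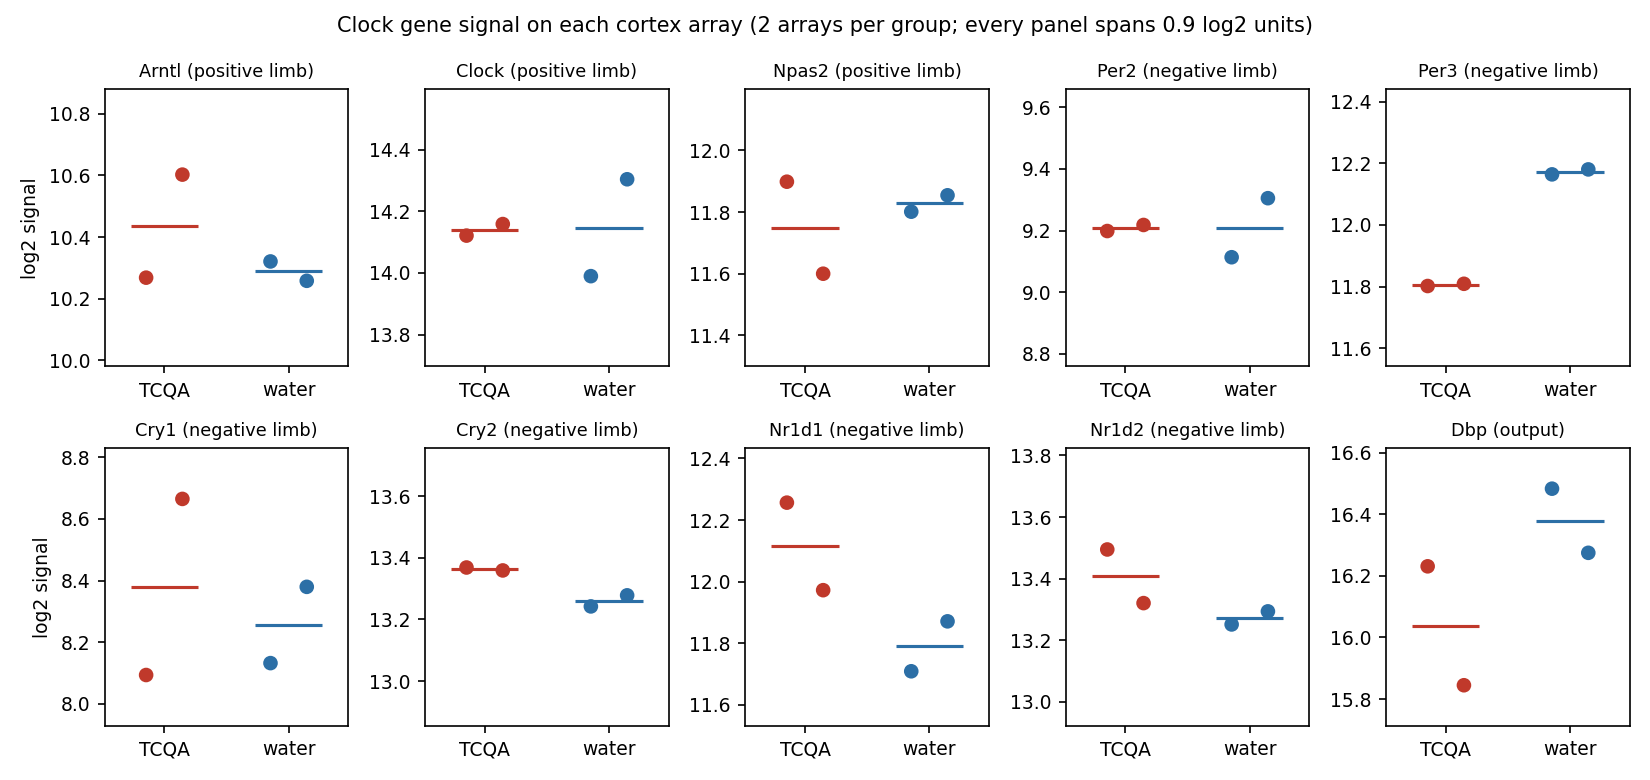
Log2 signal of the 10 clock genes, 1 panel per gene, with the 2 TCQA arrays as red points left of the 2 water arrays in blue and horizontal lines at the group means; every panel spans the same height. Per3 shows tight pairs 0.37 apart, and the arrays of a group lie 0.57 apart for Cry1 in TCQA.

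In the positive limb, Arntl, the partner common to all activating pairs, stood at 10.27 and 10.60 in TCQA 1 and 2 and at 10.32 and 10.26 in water 1 and 2. TCQA 2 was the highest and the groups overlapped, with a log2 difference of 0.15 (SE 0.21, 95% confidence interval -0.35 to 0.64). Clock, which encodes the partner of BMAL1, stood at 14.12 and 14.16 in the TCQA arrays and at 13.99 and 14.30 in the water arrays. Both TCQA values lay between the water values, and the difference was -0.0069 (SE 0.20, interval -0.50 to 0.48). Npas2, the relative of Clock that is abundant in the forebrain, measured 11.90 and 11.60 with TCQA, against 11.80 and 11.85 with water, a difference of -0.079 (SE 0.20, interval -0.56 to 0.41). The TCQA arrays enclosed both water arrays. The median of the limb was -0.0069, beside 0.0028 over all transcript clusters and 0.052 over those in the upper 50 percent of signal. The limb's median lay between -0.11 without water 1 and 0.11 without water 2, with -0.075 under quantile normalisation.

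In the negative limb Per3 had the largest difference of the 10 genes. Per3, a Period protein that is less needed for rhythm than its relatives in mice, stood at 11.80 and 11.81 in TCQA 1 and 2 and at 12.16 and 12.18 in water 1 and 2. Both TCQA arrays lay below both water arrays, and arrays of a group were 0.0072 (TCQA) and 0.016 (water) apart. The log2 difference was -0.37 (SE 0.18, 95% confidence interval -0.81 to 0.074), a 1.29-fold lower signal, with an unadjusted p of 0.0890 and an adjusted p of 0.689 by limma. Leaving out any 1 array gave between -0.37 and -0.36. The residual SD of Per3, 0.0088, was at percentile 0.169 of all transcript clusters, so its standard error came almost wholly from the variance that limma borrows from other genes. Fitted without that step, the same difference had an SE of 0.0088 and an unadjusted p of 0.000578 (linear model of 2 against 2 arrays, adjusted p = 0.637; 6.75% of transcript clusters had an unadjusted p under 0.05). With a prior that follows signal, the unadjusted p was 0.0294 (limma, adjusted p = 0.582; 8.12% of transcript clusters).

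Per2, the Period gene whose protein holds back the activating pair, measured 9.20 and 9.22 with TCQA, against 9.11 and 9.30 with water. The TCQA values lay inside the water range, and the difference was -0.00094 (SE 0.19, interval -0.46 to 0.46). Per1, the other mouse Period gene with a strong role in the loop, was added after its values were seen, and it measured 10.57 and 10.47 with TCQA, against 10.33 and 10.50 with water, a difference of 0.10 (SE 0.19). The groups of Per1 overlapped. The difference of Per3 was not tested against those of Per1 and Per2.

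The cryptochromes are the strongest repressors of the activating pair. Cry1 stood at 8.09 and 8.67 in TCQA 1 and 2 and at 8.13 and 8.38 in water 1 and 2, and its difference of 0.12 (SE 0.25, interval -0.48 to 0.73) was smaller than the gap of 0.57 between the TCQA arrays. Without TCQA 2 it was -0.16. Cry2 measured 13.37 and 13.36 with TCQA, against 13.24 and 13.28 with water. Both TCQA arrays were higher, by a mean of 0.10 (SE 0.18, interval -0.34 to 0.54; 1.07-fold, limma adjusted p = 0.910). Its residual SD of 0.019, at percentile 0.736, was also among the lowest, and fitted without the borrowed variance it had an unadjusted p of 0.0307 (linear model of 2 against 2 arrays, adjusted p = 0.690). Under quantile normalisation the difference was 0.045.

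Nr1d1 and Nr1d2 encode the REV-ERB receptors, which repress Arntl, and Nr1d1 was the member furthest above the water level. Nr1d1 stood at 12.26 and 11.97 in TCQA 1 and 2 and at 11.71 and 11.87 in water 1 and 2, a difference of 0.32 (SE 0.20, interval -0.17 to 0.82; 1.25-fold, unadjusted p = 0.161 and adjusted p = 0.719 by limma). Both TCQA arrays were higher, and TCQA 2 exceeded water 2 by less than the arrays of a group differed. Without TCQA 1 the difference was 0.18, and without TCQA 2 it was 0.47. Nr1d2 measured 13.49 and 13.32 with TCQA, against 13.25 and 13.29 with water, a difference of 0.14 (SE 0.19, interval -0.32 to 0.59), which was 0.048 without TCQA 1 and 0.22 without TCQA 2. The 6 genes of the limb had 4 positive and 2 negative differences and a median of 0.11, beside 0.052 over the transcript clusters in the upper 50 percent of signal, where all 10 genes lay. The limb's median was 0.043 without water 1, 0.049 without TCQA 2 and 0.052 under quantile normalisation.

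Dbp, the transcription factor of D-boxes and a rhythmic output of the loop, stood at 16.23 and 15.85 in TCQA 1 and 2 and at 16.48 and 16.27 in water 1 and 2. Both TCQA arrays were lower, although the closest arrays, TCQA 1 and water 2, were 0.044 apart. The difference was -0.34 (SE 0.22, interval -0.87 to 0.19; 1.27-fold lower, unadjusted p = 0.169 and adjusted p = 0.725 by limma), and it was -0.15 without TCQA 2 and -0.53 without TCQA 1. Dbp had the widest range over the 4 arrays of all members, 0.64, and Cry2 the narrowest, 0.13.

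**Figure D3:**
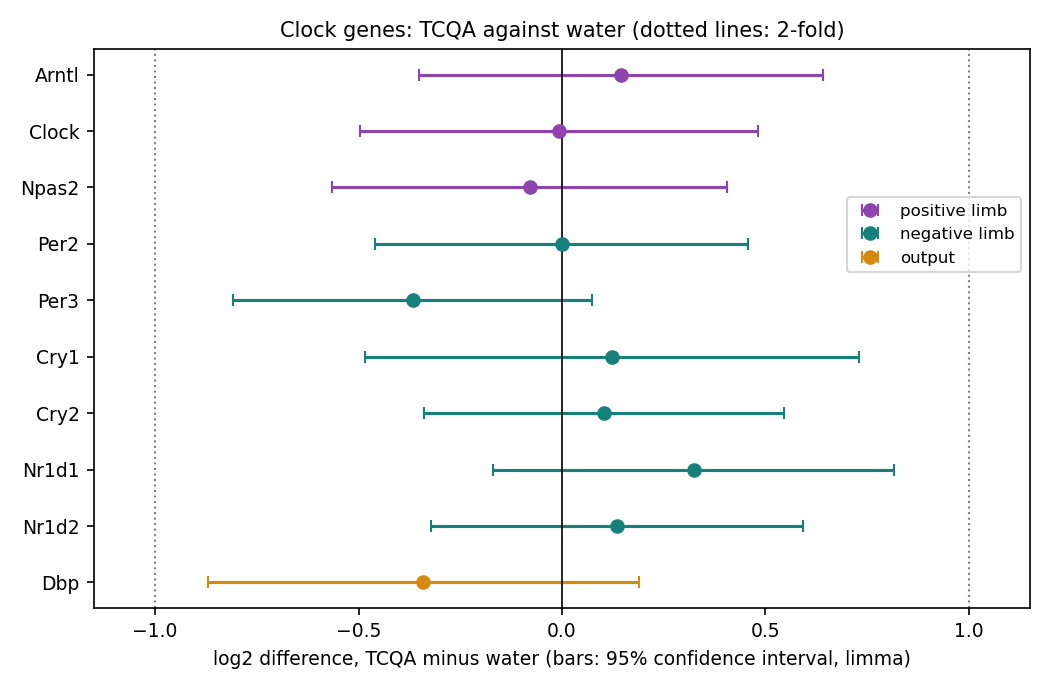
Log2 difference of each clock gene, TCQA minus water, with 95% confidence intervals from limma, coloured by limb; dotted lines mark 2-fold. The points run from -0.37 (Per3) to 0.32 (Nr1d1), all intervals include 0, and none reaches 2-fold.

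The limbs were also set side by side on each array, as the mean deviation of their genes from the 4-array mean. The positive limb stood at -0.0021 and 0.022 in TCQA 1 and 2 and at -0.061 and 0.041 in water 1 and 2. The negative limb stood at 0.016 and 0.037 in the TCQA arrays and at -0.084 and 0.031 in the water arrays. Both limbs were lowest in water 1, and the positive limb minus the negative limb was -0.018 and -0.015 after TCQA and 0.024 and 0.0093 after water. Within the negative limb and the output the directions of the group means were mixed. Per3 and Dbp, which share E-box control with Nr1d1, had lower means after TCQA, and Nr1d1 a higher one. Dbp and Nr1d1 were not opposed on each array. Nr1d1 was highest in TCQA 1 (deviation 0.30), where Dbp stood at 0.023, and Dbp was lowest in TCQA 2 (-0.36), where Nr1d1 stood at 0.020. In TCQA 2, Cry1 and Arntl were at their highest and Dbp and Npas2 at their lowest.

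Markers of tissue were read on the same arrays. Of 9 measured excitatory neuron markers of cortex, all lay above the control median on all arrays and 5 above its 95th percentile on all arrays. Fezf2 and Rbp4 lay below that percentile on all arrays, while Slc17a7, the vesicular glutamate transporter of cortical neurons, was bright, with 16.32 and 16.27 in the TCQA arrays and 15.98 and 16.34 in the water arrays. After TCQA 6 of the 9 were higher and 3 lower. Of these, 2 were higher with an unadjusted p under 0.05 with limma (3.48% of all transcript clusters in that direction), namely Fezf2 (1.17) and Rorb (0.54). Fezf2 stood at 8.81 in water 1 and at 10.28 in water 2. Choroid plexus markers were lower after TCQA for 10 of 10 measured genes of 11 listed, 7 with an unadjusted p under 0.05 (3.89% of all transcript clusters in that direction). Their summed level was 69.5 to 76.1 in the TCQA arrays and 83.5 to 90.0 in the water arrays, with 2 genes, F5 and Otx2, below the control median on all arrays. Their mean deviations of -0.37 and -1.03 in TCQA 1 and 2 and of 1.03 and 0.37 in water 1 and 2 ranked the arrays as Dbp did, with 0.023 and -0.36 after TCQA and 0.27 and 0.066 after water. Striatal markers also had their lowest mean deviation in TCQA 2 (-0.62) and their highest in water 1 (0.93). So did myelinating oligodendrocyte markers (-0.18 and 0.44), 7 measured of 8 listed, with 5 lower and 2 higher after TCQA. Astrocyte markers were highest in water 1 (0.20) but lowest in TCQA 1 (-0.19). The part of these tissues and cells in the Dbp values was not tested.

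Olfactory bulb markers had a mean level of 6.97 and 8.59 in TCQA 1 and 2 and of 7.19 and 7.00 in water 1 and 2, from 9 measured genes of 10 listed, with a summed level of 62.7 to 77.3 after TCQA and of 63.0 to 64.7 after water. One of them, Tbx21, lay below the control median on all arrays. TCQA 2, where the mean of the list was highest, was also the array with the highest Cry1 and Arntl. Inhibitory neuron markers, all 7 measured, were highest there too. Their mean deviations were -0.021 and 0.31 in TCQA 1 and 2 and -0.071 and -0.22 in water 1 and 2. Among them, Slc32a1, Pvalb, Sst and Lhx6 were highest on other arrays. The part of this tissue and these cells in the Cry1 and Arntl values was not tested. Not all olfactory bulb markers followed their mean, since Gng13 was lowest in TCQA 2 (6.71) and Pcdh8 was highest in water 2 (8.28). Striatal markers, 9 measured of 11 listed and none below the control median, were lower after TCQA for 9 of 9. Of these, 0 had an unadjusted p under 0.05 with limma (3.89% of all transcript clusters in that direction). Groups overlapped for 7 and did not for 2, against 19.2% of all transcript clusters without overlap in that direction. Their summed level was 113.5 to 118.6 after TCQA and 116.7 to 127.4 after water. Thalamic markers, all 8 measured, were mixed, with 5 lower and 3 higher after TCQA. Of those lower, 3 had an unadjusted p under 0.05 with limma (3.89% of all transcript clusters in that direction). These were Prkcd (-1.99), Tcf7l2 (-0.86) and Synpo2 (-0.71). The summed level of the 8 markers was 67.4 to 69.6 after TCQA and 70.6 to 74.4 after water. Synpo2 and Lef1 lay below the control median on all arrays. The part of striatum and thalamus in the clock gene values was not tested. In bulk tissue fewer cells of a type and less RNA per cell cannot be told apart.

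**Figure D4:**
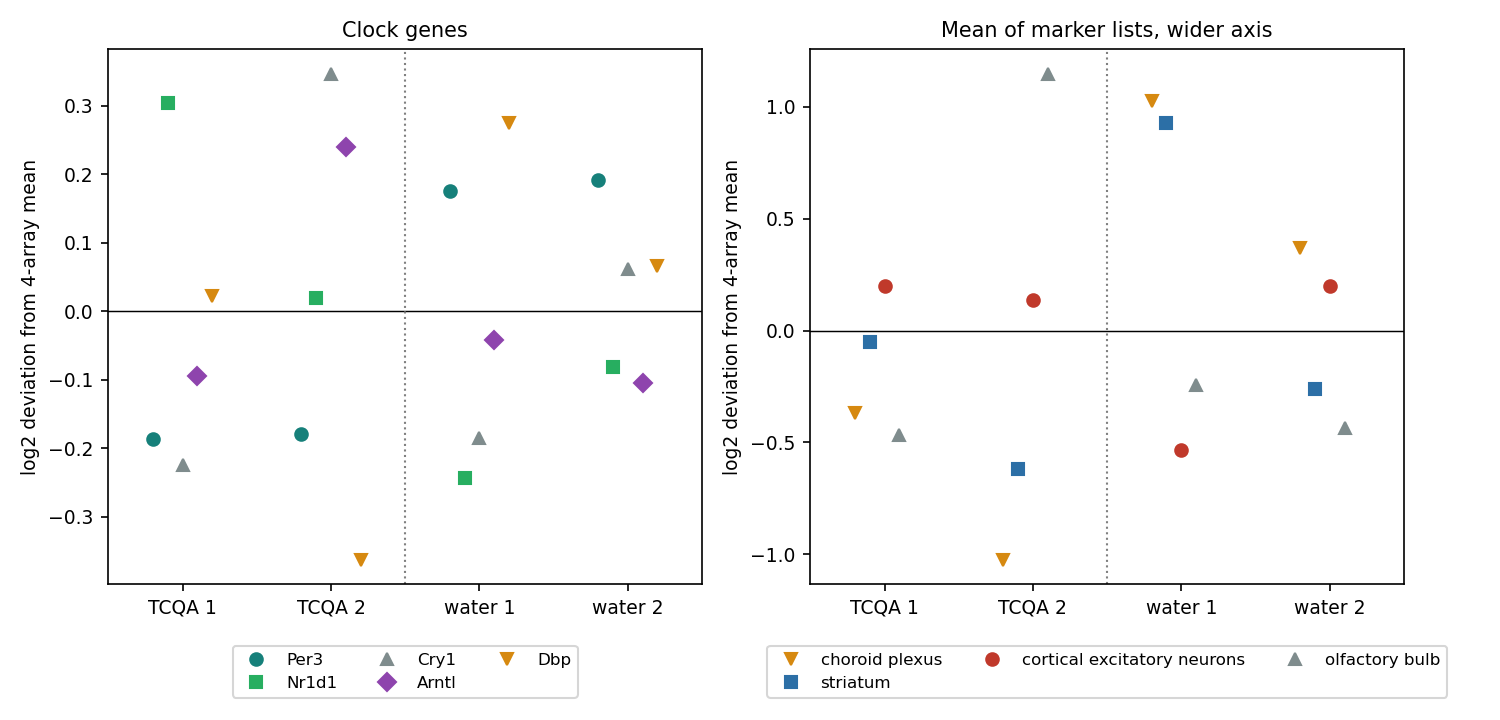
Deviation from the 4-array mean, in log2 units, of 5 clock genes (left) and of the mean of 4 marker lists (right, on a wider axis), with the TCQA arrays left of the water arrays. Dbp, the choroid plexus mean and the striatal mean are lowest in TCQA 2 and highest in water 1. Cry1, Arntl and the olfactory bulb mean are highest in TCQA 2, and the Per3 points are level within each group.

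Beyond the 10 genes, 3 lists of the pathway held 52 names, of which Skp1a and Chrono are older names of the listed Skp1 and Ciart, and 45 genes were measured. Of these, 4 had an unadjusted p under 0.05 with limma, 3 higher and 1 lower after TCQA, which is 8.89% against 7.37% of all transcript clusters, and 0 passed after adjustment. The median log2 difference was 0.15, beside 0.0028 over all transcript clusters, and was 0.092 under quantile normalisation and 0.088 without TCQA 2. Of the 45 genes, 32 were higher and 13 lower, where 50.5% of all transcript clusters had the higher mean after TCQA. The 37 of them in the upper 50 percent of signal had a median of 0.10, beside 0.052 over that range. Groups did not overlap for 25 of 45, 20 of them higher, against 39.2% of all.

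The loop and output factors had 15 measured genes, 13 higher and 2 lower, or 9 higher and 6 lower without water 1. Of all transcript clusters, 50.5% were higher. The 12 of these genes in the upper 50 percent of signal had a median of 0.099, beside 0.052 over that range. Rorb, a ROR receptor that activates at RORE sites and also marks layer-specific excitatory neurons, had an unadjusted p of 0.0481 (limma, adjusted p = 0.673), with 12.64 and 12.70 in TCQA 1 and 2 and 11.91 and 12.35 in water 1 and 2, a difference of 0.54 (SE 0.22). It was 0.32 without water 1, where the p was 0.242. Excitatory neuron markers, 9 measured of 10 listed and with Rorb among them, had a summed level of 117.4 to 117.9 after TCQA and of 111.3 to 117.9 after water, lowest in water 1, none of them below the control median, and their part in the Rorb value was not tested. Wee1, a clock-controlled kinase that delays mitosis, measured 12.00 and 12.12 with TCQA, against 11.50 and 11.70 with water, a difference of 0.46 (SE 0.19, limma adjusted p = 0.675). Hlf, a relative of DBP that binds the same D-boxes, measured 10.78 and 10.75 with TCQA, against 10.10 and 10.59 with water. Its difference of 0.42 (SE 0.23) had the sign opposite to that of Dbp, and was 0.17 without water 1 and 0.67 without water 2. Timeless, a replication fork protein related to the fly clock gene, measured 6.42 and 5.83 with TCQA, against 5.24 and 5.78 with water, all below the control median.

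Among the post-translational regulators, which set how long PER and CRY proteins last, 0 of 17 measured genes had an unadjusted p under 0.05 with limma, against 7.37% of all transcript clusters. In this list 11 genes were higher and 6 lower after TCQA, where 50.5% of all transcript clusters had the higher mean after TCQA. All 17 lay in the upper 50 percent of signal, and their median difference was 0.17, beside 0.052 over that range. Cipc, an inhibitor of the CLOCK pair, measured 11.69 and 11.55 with TCQA, against 12.20 and 11.84 with water, a difference of -0.40 (SE 0.21, limma adjusted p = 0.690) that was -0.22 without water 1. Fbxl21, an F-box protein that marks cryptochromes with ubiquitin, measured 8.89 and 8.31 with TCQA, against 9.34 and 8.87 with water, and its groups overlapped. Prkaa1, a catalytic subunit of the energy sensor AMPK, differed by 0.34 (SE 0.19), with 10.01 and 10.20 after TCQA against 9.84 and 9.70 after water. Csnk1a1, a casein kinase that phosphorylates PER proteins, differed by 0.30 (SE 0.19).

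The list of signals that feed light, neuropeptides, temperature and cAMP into the clock also holds Prok2, an output signal. It gave 3 of the 4 calls among 13 measured genes, 23.1% against 7.37% of all transcript clusters. Restricted to the upper 50 percent of signal, it gave 1 of 8, against 9.18%. The list median was 0.15, but -0.056 without water 2, and 4 of the 13 genes lay below the control median on all arrays. Adcyap1, the precursor of the neuropeptide PACAP, was higher by 0.87 (SE 0.23, unadjusted p = 0.00809, limma adjusted p = 0.661), with 5.89 and 6.36 in TCQA 1 and 2 and 5.17 and 5.34 in water 1 and 2. Prok2, prokineticin, an output signal of the suprachiasmatic clock, differed by -0.89 (SE 0.35, limma adjusted p = 0.673), with 3.49 and 4.48 under TCQA, against 5.06 and 4.68 under water, and was -0.39 without TCQA 1 and -1.39 without TCQA 2. Both genes lay below the control median on all arrays, so the sizes of their differences are uncertain. Crtc1, a coactivator of CREB that is abundant in neurons, was higher by 0.45 (SE 0.19, unadjusted p = 0.0491, limma adjusted p = 0.673), with 13.63 and 13.52 under TCQA, against 13.17 and 13.08 under water. Vip, a neuropeptide of a class of cortical interneurons and of the suprachiasmatic nucleus, measured 9.57 and 9.66 with TCQA, against 7.98 and 9.46 with water, with a difference of 0.90 (SE 0.45) that was 0.16 without water 1 and 1.64 without water 2. Without the empirical Bayes step the unadjusted p of Adcyap1 was 0.0733 (linear model of 2 against 2 arrays). Its difference was 0.63 without TCQA 2, and the alternatives limited to brighter signal did not hold the gene. Over the alternatives that held it, the unadjusted p of Adcyap1 stayed under 0.05 in 11 of 13. For Prok2 this was 8 of 13, for Rorb 8 of 15 and for Crtc1 6 of 15, and Crtc1 lost it with any 1 array left out (0.40 to 0.51).

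**Figure D5:**
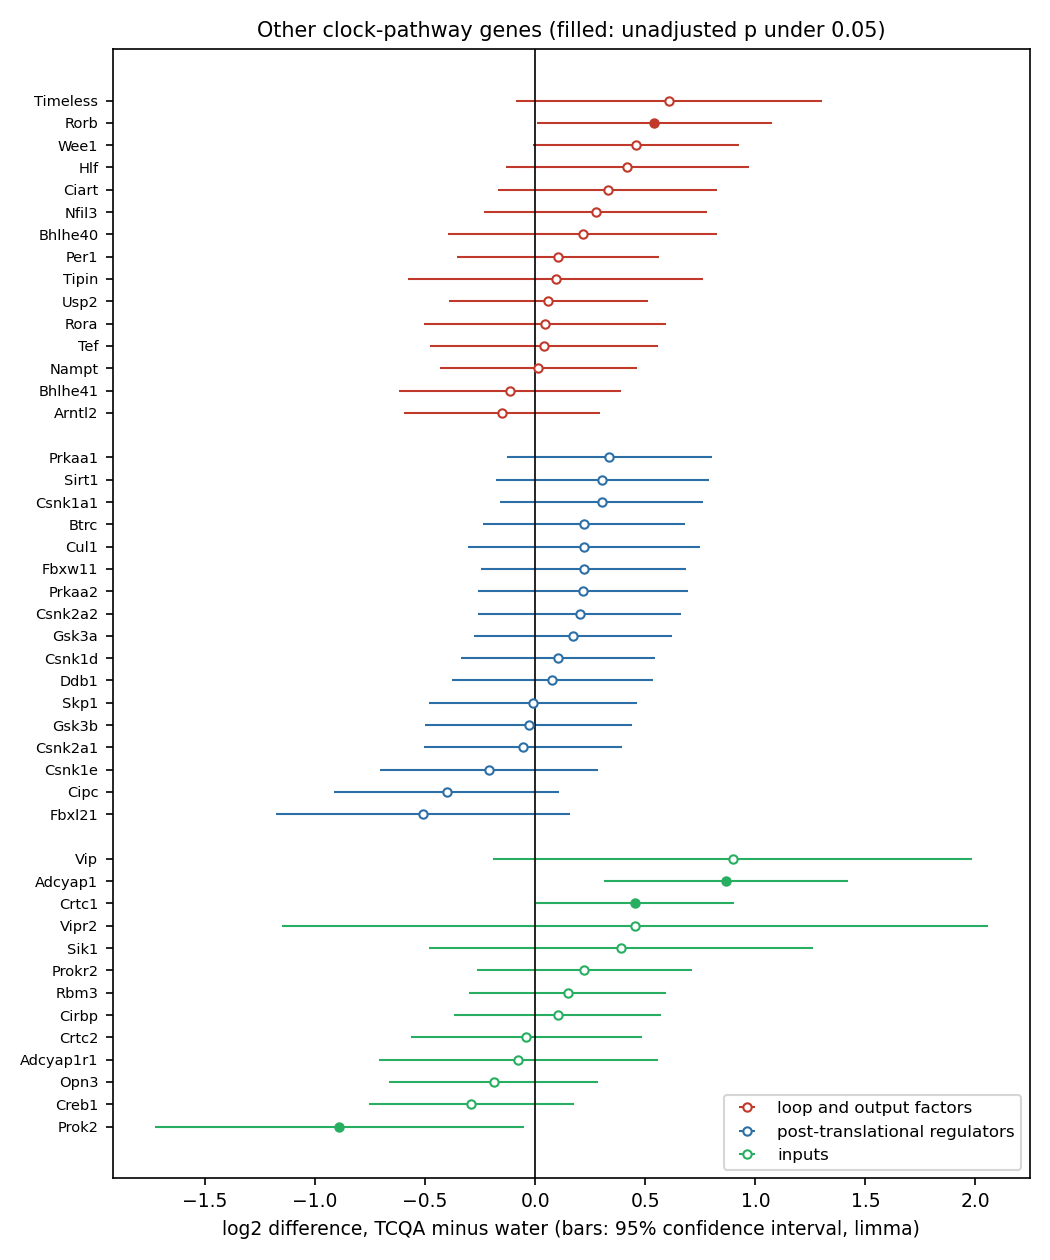
Log2 difference, TCQA minus water, of 45 other clock-pathway genes in 3 lists, with 95% confidence intervals from limma; filled points have an unadjusted p under 0.05. The filled points are Rorb, Adcyap1 and Crtc1 above 0 and Prok2 below it.

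The transcript clusters most like Dbp over the 4 arrays, by Euclidean distance between values centred on their own mean, were 3110082J24Rik (distance 0.024), Nr1i2 (0.045) and Cd63 (0.048), out of 19514 outside these lists. With 4 arrays such likeness is common, since 502 transcript clusters lay within 0.2.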

How the data were processed

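Cortex RNA, 100 ng per array, was measured on Clariom S mouse arrays. The authors deposited log2 values for each transcript cluster, normalised by SST-RMA with the Transcriptome Analysis Console (4.0.2) per the series' design text, and RMA and limma are named in the submitters' processing notes. RMA evens out array distributions, so the values carry no depth per array. Small differences remained among the named transcript clusters, with array medians from 6.98 (water 2) to 7.04 (TCQA 2). Their median TCQA minus water difference was 0.0028 over all and 0.052 in the upper 50 percent of signal. The authors' filters on detection were not used here, and the sources used here do not name the array's genome build.

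Gene symbols came from the platform annotation, and all 10 members' gene IDs matched RefSeq on GRCm38.p6, which gave the promoters. The 19572 named transcript clusters of 28846 rows were fitted with limma 3.58.1 in R 4.3.3 (lmFit, eBayes, 2-sided, no block), with Benjamini-Hochberg adjustment over all, and the model was tested on simulated data. Alternatives covered the prior, array weights, scaling, dim-signal filters, the rows fitted, the replicate number as a block and leaving out each array. Members and lists were chosen with earlier results of these data known. The text names the 10 members, up to 4 genes of smallest p in each of 3 pathway lists, and the 3 transcript clusters nearest to the member of widest range; Per1, single markers and the motifs were chosen after values were seen. Figures used matplotlib 3.10.9.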

Additional observations from a re-analysis of the deposited data

How the results depend on the processing

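Under 15 alternatives, Per3, Cry2, Nr1d1, Nr1d2 and Dbp kept their direction, but most alternatives could not have changed it. Those of the prior, array weights, filters, rows fitted and block left each member's log2 difference unchanged. Leaving out 1 array cannot reverse groups that do not overlap, as in these genes. Only quantile normalisation and median centring could have changed their signs, and neither did. The unadjusted count of clock members went to 2 without the empirical Bayes step (Per3 and Cry2) and to 1 with an intensity trend in the prior (Per3), and was 0 otherwise. Left-out arrays changed the sign of Arntl (-0.021 to 0.31), Clock (-0.16 to 0.15), Npas2 (-0.23 to 0.071), Per2 (-0.097 to 0.095) and Cry1 (-0.16 to 0.41). The medians then ran from -0.11 to 0.11 for the positive and from 0.043 to 0.14 for the negative limb, and under quantile normalisation they were -0.075 and 0.052. The count of 4 other pathway genes was 2 without the empirical Bayes step, 7 with the trend, 1 with quantile normalisation, 2 with median centring, 1 with controls fitted and between 2 and 6 with an array left out. The count of 130 transcript clusters past the study's criteria was 55 without the empirical Bayes step, 44 in the upper 50 percent of signal, 44 above the control median and between 218 and 428 with an array left out, where the lone array is assumed to vary like the other group. Between 0 and 2 transcript clusters then passed adjustment. The cause was not tested.

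The labels do not say whether arrays of the same replicate number shared anything beyond the number. Deviations of same-numbered arrays correlated at -0.0032 over genes, a single value that cannot show whether they did. With the replicate number as a block, 0 of 10 clock members and 5 of 45 other pathway genes had an unadjusted p under 0.05 with limma. The share over all transcript clusters was not computed for this fit. Signal near background limits Arntl, Per2 and Cry1.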

Other observations

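The brain's master clock lies in the suprachiasmatic nucleus of the hypothalamus, and its markers were read in the cortex samples. Of 10 measured markers of that nucleus and the hypothalamus, 7 lay below the negative control median on all arrays, among them Six6 at 3.22 and 3.34 in TCQA 1 and 2 and at 3.34 and 3.03 in water 1 and 2. Avp, the precursor of vasopressin, stood at 4.76 and 4.47 in TCQA 1 and 2 and at 7.77 and 4.67 in water 1 and 2, so that water 1 alone lay above that median. The cold-inducible RNA-binding genes Cirbp and Rbm3, which follow body temperature, differed by 0.10 (SE 0.19) and 0.15 (SE 0.19) between TCQA and water; with limma neither had an unadjusted p under 0.05. These genes were chosen after their values were seen.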
